A study of Oryza sativa with 3 samples.

Results

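The regions described here are the outermost 2 Mb of the short arms of rice chromosomes 11 and 12, positions 1 to 2000000 of each, and are called the chromosome 11 block and the chromosome 12 block. They were defined by position, with earlier results of these data known. Together they held 37659 of 3456855 nucleosome calls and 238737 of 26516807 single-end reads of the 12 chromosomes. Each block was compared with the other block and with a control window on its own chromosome, positions 3000000 to 5000000. All positions are those of TIGR release 5 of the rice genome, as used by the authors.

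The short-arm ends of chromosomes 11 and 12 are known as a pair of duplicated segments that have stayed unusually alike in sequence. A short read drawn from sequence that is identical in both copies has no single position in the genome, and such a read is dropped where only uniquely placed reads are kept. MNase cuts the DNA between nucleosomes and leaves the DNA wrapped around the histones, so that the 5' ends of the sequenced fragments lie at nucleosome edges.

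Both libraries were made from MNase-digested chromatin of leaf tissue from 2-week-old seedlings of the cultivar Nipponbare, with 1 biological replicate in each form. Replicate 1 gave single reads of 36 bp from 2 technical replicates, which the deposited positions pool without a mark, and replicate 2 gave read pairs, of which the nucleosome calls were analysed here. With 1 biological replicate in each form, and both from the same tissue, no test between samples could be made. The values below are therefore descriptions, with 95% intervals for counting error or with the spread over bins or other regions. Genes were not placed on the blocks here.

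Over the 12 chromosomes the deposited reads came to 71.3 per kb and the calls to 9.29 per kb. A read was counted at its 5' end. A call is a 120-bp interval given by nucleR, a program that places nucleosomes at maxima of the fragment centres, together with a score for which the sources used here define no scale.

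Fewer single-end reads were placed in both blocks than in their control windows. The chromosome 11 block had 116163 reads, or 58.1 per kb (exact Poisson interval 57.7 to 58.4), against 74.6 per kb (74.3 to 75.0) in its control window. The chromosome 12 block had 122574 reads, or 61.3 per kb (60.9 to 61.6), against 77.9 per kb (77.5 to 78.3). The density of the block was thus 0.778 of that of the control window on chromosome 11 and 0.787 on chromosome 12, and the blocks differed less from each other than either did from its control window. Forward reads made up 50.2% and 50.3% of the reads of the blocks, and reads that repeated the position and strand of another made up 14.8% and 14.9%, against 14.6% and 14.1% in the control windows.

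The lower density extended over nearly the whole of each block. In bins of 100 kb, the density was 58.1 ± 13.9 reads per kb (SD over 20 bins) in the chromosome 11 block and 61.3 ± 14.7 in the chromosome 12 block, against 74.6 ± 11.5 and 77.9 ± 7.69 in the control windows. On each chromosome 18 of 20 bins of the block lay below the median bin of its control window, and 2 bins of the chromosome 11 block and 12 bins of the chromosome 12 block lay below the lowest control bin. Between 2 and 3 Mb, just inside the blocks, the bins had 80.0 ± 9.79 reads per kb on chromosome 11 and 79.0 ± 7.22 on chromosome 12 (SD over 10 bins), so that the density changed within a few bins of the inner limit. Single 1-kb bins of the blocks overlapped those of the control windows widely. The quartiles were 30 to 83.25 reads in the chromosome 11 block against 40.75 to 108 in its control window, and 33.75 to 84 against 49 to 105 on chromosome 12.

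**Figure D1:**
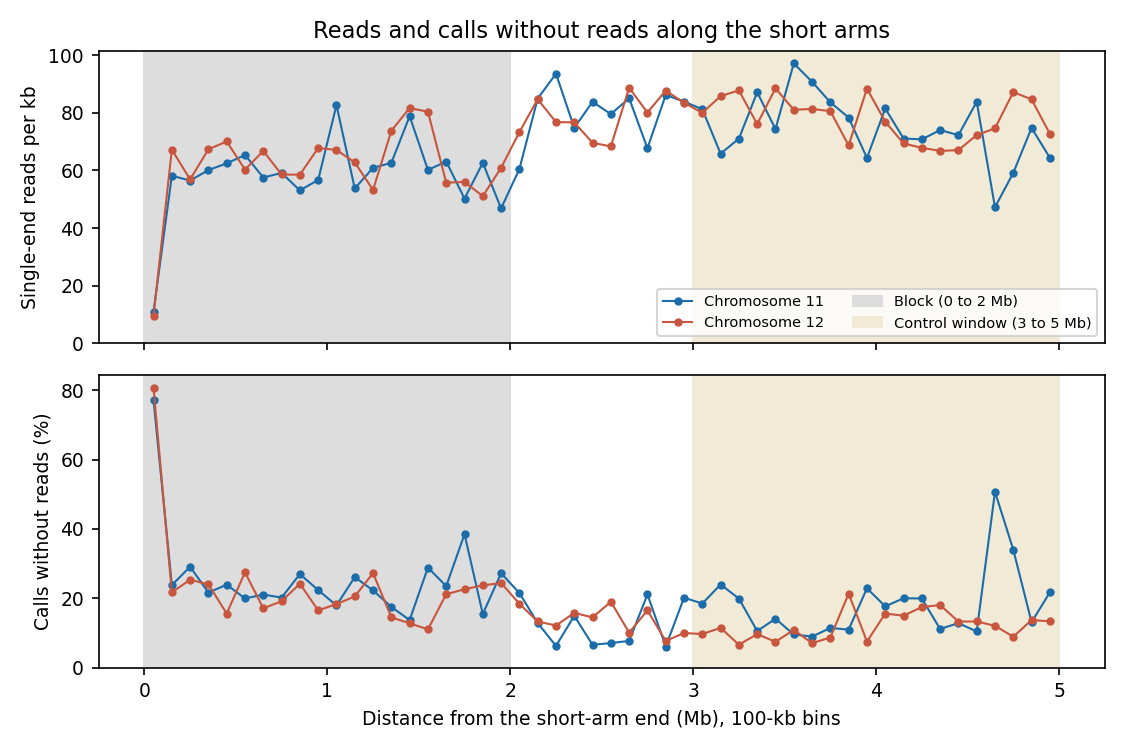
Single-end reads per kb (upper panel) and the share of nucleosome calls without reads in percent (lower panel) in 100-kb bins of the first 5 Mb of chromosomes 11 and 12, with each point 1 bin and the block and the control window shaded. The outermost bin had 10.9 reads per kb on chromosome 11 and 9.58 on chromosome 12, and the other bins of the blocks ran from 46.8 to 82.7 and from 51.1 to 81.7 reads per kb.

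The 2 bins with the fewest reads were, on chromosome 11, the outermost one, at 0 to 100 kb, with 1092 reads, and the innermost one, at 1900 to 2000 kb, with 4681 reads or 46.8 per kb. On chromosome 12 they were again the outermost, with 958 reads, and the bin at 1800 to 1900 kb, with 5107 reads or 51.1 per kb. The outermost bin was therefore the lowest of both blocks by a wide margin. The bins with the most reads lay further in, at 1000 to 1100 kb (82.7 reads per kb) and 1400 to 1500 kb (78.9 reads per kb) on chromosome 11, and at 1400 to 1500 kb (81.7 reads per kb) and 1500 to 1600 kb (80.4 reads per kb) on chromosome 12. Those bins reached the level of the control windows. Without the outermost 100 kb the blocks had 60.6 and 64.0 reads per kb, so that the ratio to the control window was 0.811 on chromosome 11 and 0.822 on chromosome 12.

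Low density was not found at chromosome ends in general. The first 2 Mb of the other 10 chromosomes had 64.4 to 85.0 reads per kb with a median of 74.8, and both blocks lay below the lowest of them. Among all 177 other whole 2-Mb tiles of the genome, which include those 10 ends, the density ran from 46.0 to 85.8 reads per kb with a median of 72.2. Of these, 11 tiles (6.21%) lay below the chromosome 11 block and 19 tiles (10.7%) below the chromosome 12 block. The blocks were thus low among tiles but not at the bottom of their range.

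**Figure D2:**
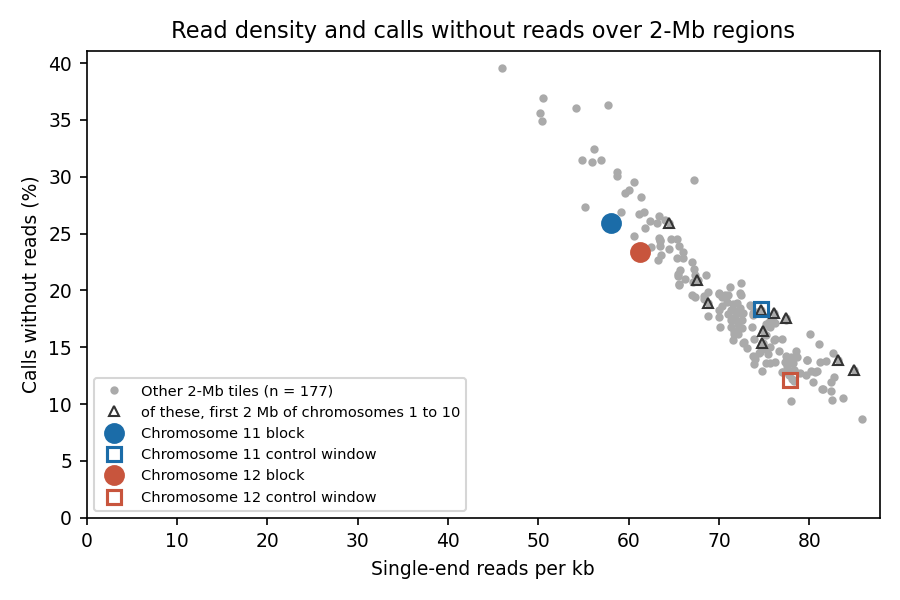
Share of nucleosome calls without reads in percent against single-end reads per kb for whole 2-Mb regions, with grey points for the 177 other tiles, triangles for the first 2 Mb of chromosomes 1 to 10, filled circles for the blocks and open squares for the control windows. The blocks, at 58.1 and 61.3 reads per kb, lie to the left of all 10 triangles (64.4 to 85.0 reads per kb) and within the range of the grey points.

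Nucleosome calls, which come from the read pairs of the other replicate, were not fewer in the blocks. The chromosome 11 block had 18755 calls, or 9.38 per kb, and the chromosome 12 block 18904 calls, or 9.45 per kb, against 9.18 and 9.20 per kb in the control windows. Of the 177 other tiles, 122 had fewer calls per kb than the chromosome 11 block and 136 fewer than the chromosome 12 block, within a range of 8.61 to 10.1. Calls that overlapped the next call made up 76.8% and 76.3% in the blocks and 76.0% and 75.8% in the control windows. Distances over 250 bp between adjacent calls made up 3.47% and 3.57% in the blocks and 4.12% and 4.11% in the control windows. The median score was 0.489 and 0.478 in the blocks, 0.470 and 0.459 in the control windows and 0.469 over the genome. Reads and calls thus ranked the blocks on opposite sides of the median tile.

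More calls of the blocks than of the control windows had no read at their centre. A call was counted as without reads where no single-end read, with its 5' end moved 73 bp inwards to the expected nucleosome centre, lay within 20 bp of the centre of the call. Over the genome 19.1% of calls were of this kind. In the chromosome 11 block they were 4862 of 18755 calls, or 25.9% (exact Clopper-Pearson interval 25.3 to 26.6), against 18.4% (17.9 to 19.0) in its control window. In the chromosome 12 block they were 4420 of 18904 calls, or 23.4% (22.8 to 24.0), against 12.1% (11.6 to 12.6).

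The share of calls without reads moved with the density of reads. The tiles ran from 8.69% to 39.5% with a median of 17.7%, and the shares of the blocks were higher than those of 153 and 139 of the 177 tiles. The tiles next below and next above the chromosome 11 block in density had 36.3% and 30.1%. Those next to the chromosome 12 block had 26.8% and 28.2%. Both blocks thus had lower shares than their neighbours in density. The first 2 Mb of the other chromosomes ran from 13.0% to 25.9%, so that the chromosome 12 block lay inside their range and the chromosome 11 block at its upper end. The outermost 100 kb contributed much of the difference, since without it the difference from the control window was 4.77 percentage points on chromosome 11 in place of 7.51, and 8.29 in place of 11.3 on chromosome 12. With a read anywhere within 73 bp of the centre of the call taken as support, the difference was 1.76 percentage points on chromosome 11 and 5.68 on chromosome 12. Calls without reads had lower scores than the other calls, with a median of 0.435 against 0.509 in the chromosome 11 block and 0.426 against 0.494 in the chromosome 12 block, and the control windows had the same order, with 0.413 against 0.483 and 0.382 against 0.471.

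Stretches in which no read had its leftmost base took up more of the blocks than of their control windows. A read-free run is here a stretch of at least 200 bp in which no read has its leftmost base. The chromosome 11 block had 1009 such runs over 22.5% of its length, against 655 runs over 17.0% in its control window. The chromosome 12 block had 959 runs over 19.7%, against 565 runs over 10.6%. Without the outermost 100 kb the difference in covered length was 2.42 percentage points on chromosome 11 in place of 5.49, and 5.78 on chromosome 12 in place of 9.15. With a minimum of 500 bp it was 1.76 and 4.97, and with a minimum of 100 bp 10.8 and 13.9 percentage points. At 200 bp, the first 2 Mb of the other 10 chromosomes ran from 12.2% to 24.0%, so that both blocks lay inside their range. Of the 177 other tiles, 142 had a lower share than the chromosome 11 block and 127 a lower share than the chromosome 12 block. The tiles next below and next above in read density had higher shares than the blocks, with 35.4% and 27.0% for chromosome 11 and 24.7% and 27.2% for chromosome 12.

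Nucleosomes were also called inside these runs, at a somewhat lower density than outside. The read-free runs held 3672 calls (19.6% of all calls) in the chromosome 11 block and 3275 calls (17.3%) in the chromosome 12 block. The runs lack leftmost bases only, and not all of their calls were without reads. The share without reads among them was 78.2% and 77.0%. Per kb of run there were 8.16 and 8.29 calls, against 9.73 and 9.74 per kb outside the runs. In the control windows the same values were 7.75 and 6.13 calls per kb inside and 9.47 and 9.57 outside. Of the calls without reads, 59.1% and 57.1% lay in read-free runs in the blocks. Among the calls outside the runs, 13.2% and 12.1% had no read, against 7.56% and 7.43% in the control windows, and the reads outside the runs came to 74.9 and 76.4 per kb against 89.9 and 87.1. Leaving out the runs therefore reduced the contrast with the control windows without removing it. With runs of 100 bp or more left out, a limit chosen after seeing the data, the ratio of densities was 0.910 on chromosome 11 and 0.951 on chromosome 12.

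The longest runs of the chromosome 11 block lay at 815075 to 820007 (4933 bp), 1056222 to 1059817 (3596 bp) and 1971965 to 1975202 (3238 bp), and held 49, 40 and 33 calls. Those of the chromosome 12 block lay at 157153 to 159713 (2561 bp), 507846 to 510200 (2355 bp) and 1957234 to 1959579 (2346 bp), and held 24, 26 and 26 calls. In 5 of these 6 runs the median score of the calls was 0.573 or more, above the median of the block. In the run at 157153 on chromosome 12 it was 0.452.

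The outermost 100 kb was described in 5-kb bins. On both chromosomes the first 5 kb held reads at 78.8 (chromosome 11) and 50.2 (chromosome 12) per kb. After it the density fell, and it stayed under 25 reads per kb in every bin up to position 105000 on chromosome 11 and up to 100000 on chromosome 12. The limits of these stretches were set on the density itself, so that their density is given as a description only. The stretch of chromosome 11, at 5001 to 105000, held 713 reads or 7.13 per kb, and its 5-kb bins ran from 1.4 to 17 reads per kb. That of chromosome 12, at 5001 to 100000, held 707 reads or 7.44 per kb, and its bins ran from 1.8 to 21.6. The following 100 kb had 60.3 reads per kb on chromosome 11 and 67.2 on chromosome 12.

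**Figure D3:**
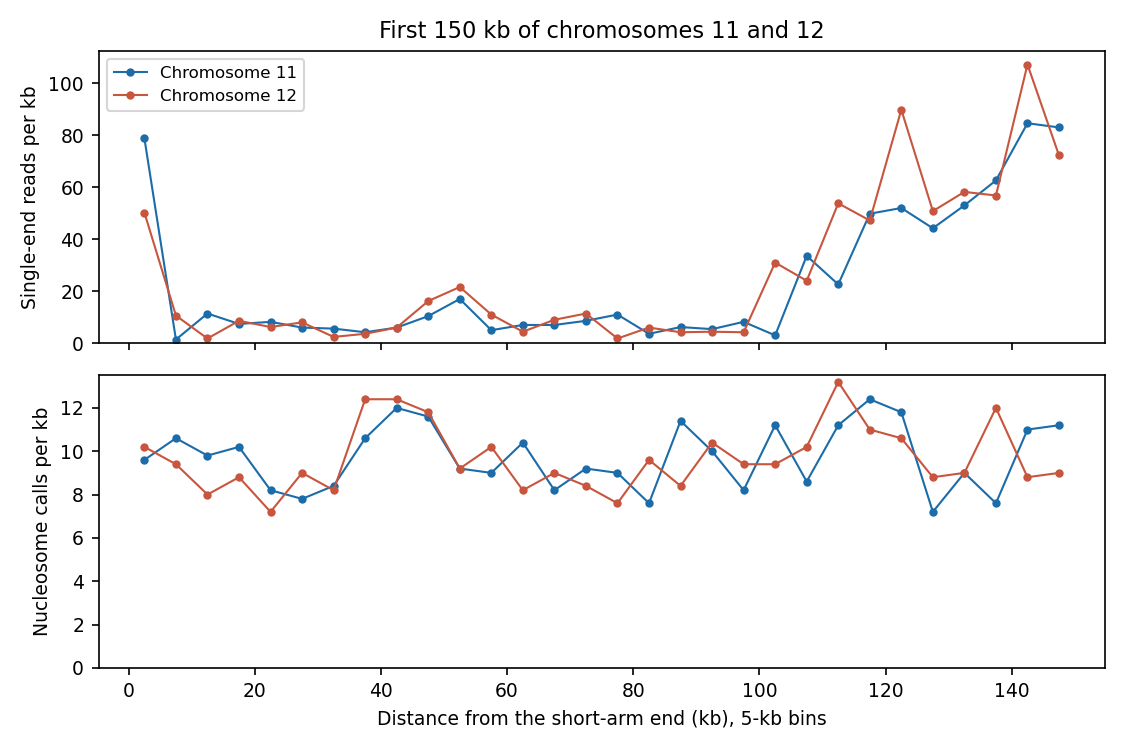
Single-end reads per kb (upper panel) and nucleosome calls per kb (lower panel) in 5-kb bins of the first 150 kb of chromosomes 11 and 12, with each point 1 bin. Reads stay under 25 per kb from 5 kb to 105 kb on chromosome 11 and to 100 kb on chromosome 12, while the calls of these bins run from 7.6 to 12 and from 7.2 to 12.4 per kb.

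Calls in these stretches were as dense as elsewhere in the blocks. The stretch of chromosome 11 held 963 calls, or 9.63 per kb with a median score of 0.474, and that of chromosome 12 held 888 calls, or 9.35 per kb with a median score of 0.456. The rest of the blocks had 9.36 and 9.46 calls per kb. Read pairs as well as single reads were kept for use only where they had a unique position, and how many pairs stood behind the calls of the stretches was not examined, since the pairs were not analysed here. Of the calls in the stretches, 776 on chromosome 11 (80.6%, 77.9 to 83.0) and 727 on chromosome 12 (81.9%, 79.2 to 84.4) had no read, against 23.0% and 20.4% in the rest of the blocks. Read-free runs took up 85.1% and 86.0% of the stretches.

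The reads that were placed in the stretches stood in small groups. With leftmost bases split into groups wherever 36 bp or more, the read length, lay between them, there were 255 groups on chromosome 11 and 229 on chromosome 12, with a median of 2 reads each. Of these groups, 93.3% and 91.7% were no wider than 36 bp, and the median gap between neighbouring groups was 230.5 and 228 bp. The stretches of both chromosomes were thus alike in the width and distances of these groups. Both were set on low density and had a like depth, and other read-poor stretches were not grouped in this way.

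Read-poor stretches of this length were uncommon but not particular to these ends. Over the genome 10.9% of 5-kb bins had under 25 reads per kb, against 12.8% in the chromosome 11 block and 8.75% in the chromosome 12 block. Outside the end stretches the shares were 8.16% and 4.20%, both below that of the genome, against 10% and 3% in the control windows. Among 287 unbroken read-poor stretches of 25 kb or more in the genome, 13 were longer than that of chromosome 11 and 15 longer than that of chromosome 12, and 7 began in the first 200 kb of a chromosome. Their calls per kb ran from 4.51 to 13.1 with a median of 8.76, so that the calls of both end stretches were not low for such sequence.

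The 2 ends were then compared for shared positions. Each 10-kb window of the chromosome 11 block was moved along the chromosome 12 block in the same orientation, and the offset (the position on chromosome 12 minus that on chromosome 11) with the highest correlation of read presence was taken. The offset at which most calls of the window coincided within 2 bp was found separately from the calls. These comparisons, and the matching by offsets that follows from them, were chosen after seeing the data. The read offset and the call offset, which come from different libraries, agreed within 20 bp in 8 of 200 windows (4%), against 2 of 4600 windows (0.0435%) over 23 pairs of other regions treated alike, none of which had more than 1. A neighbouring window with the same read offset within 1 kb was found for 15 windows, against 0.696% of the windows of the other pairs, in which the count ran from 0 to 8 per pair. From the calls alone such a neighbour was found for 4 windows, within the 0 to 6 of the other pairs, so that the calls by themselves did not set the blocks apart.

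The matching windows were concentrated at the end. Of the 15 windows with a neighbour at the same read offset, 11 were the unbroken series from 10 to 120 kb, which covers nearly all of the read-poor stretch. Their correlations ran from 0.191 at 110 kb to 0.469 at 30 kb, against a median of 0.209 over the 200 windows of the block. In the other pairs the highest correlation of any window was 0.472, so that the height of the correlation alone did not set the series apart. The read offset was -1619 bp at 10 kb and -1595, -1588, -1589 and -1591 bp at 20, 30, 40 and 50 kb, and the call offset of the last 4 windows was -1599, -1586, -1587 and -1591 bp. Further in it stepped to -3918 bp at 60 kb and reached -4319 bp at 110 kb, where the calls gave -3952 and -4292 bp, and at 90 kb it was -4148 bp from reads and -4147 bp from calls. In the windows at 10, 70, 80 and 100 kb the call offset lay elsewhere. The other windows in which both libraries gave the same offset lay at 240 kb (15396 and 15388 bp), 460 kb (78385 and 78384 bp) and 1720 kb (-42931 and -42928 bp). The best-matching place on chromosome 12 by reads thus moved in steps from 10 to 120 kb. Further in, the windows in which both libraries agreed were isolated, with offsets of both signs, and showed no course along the block.

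**Figure D4:**
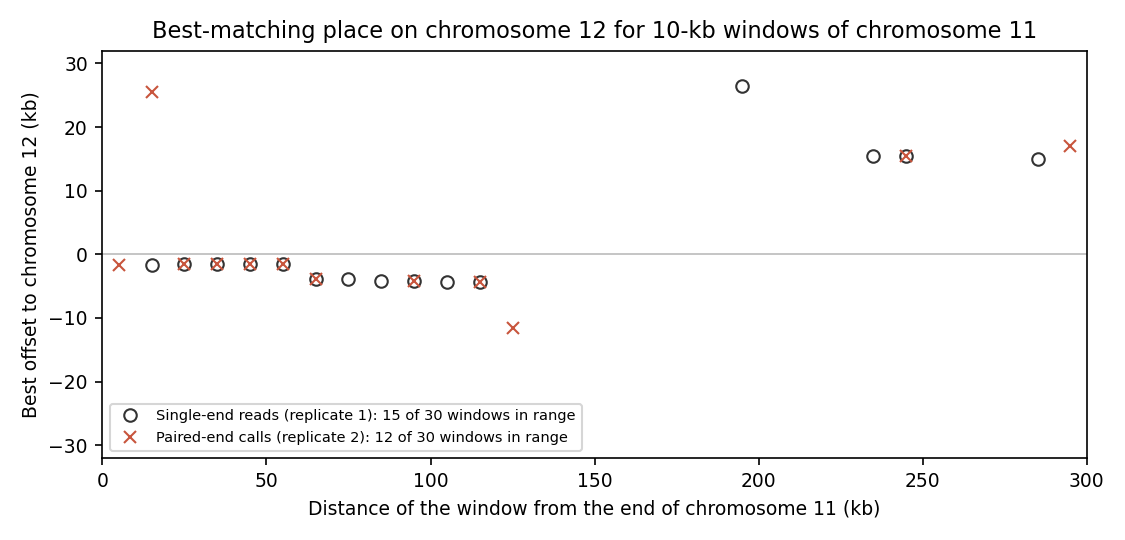
Best offset to chromosome 12 in kb, within 30 kb of either sign, against the distance of the 10-kb window from the end of chromosome 11 in kb, for the first 300 kb, with open circles for the single-end reads and crosses for the paired-end calls, each at the centre of its window. Circles form a series over the windows from 10 to 120 kb at offsets from -1588 to -4319 bp, and crosses fall inside circles for the windows at 20, 30, 40, 50, 60, 90, 110 and 240 kb.

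The calls of the 2 ends lay at the same places where the reads set the match. Positions were carried from chromosome 11 to chromosome 12 by the read offsets alone, refined in 2-kb pieces, so that the calls were not used in the matching. From 10 to 120 kb, 759 of 1071 chromosome 11 calls (70.9%, 68.0 to 73.6) had a chromosome 12 call within 20 bp of the carried position. At the same positions moved by 300 to 1000 bp in either direction the share was 40.3% on average, and between 38.0% and 44.3% over 142 moves. Of the 50% of calls with the highest score over the genome, 367 of 557 (65.9%) were matched in this way by another call of that kind, against 22.7% (16.5% to 27.1%) at moved positions. Single-end reads in these windows came to only 11.2 per kb on chromosome 11 and 12 per kb on chromosome 12.

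The matched calls also had like scores. The median distance between the calls of a pair was 6 bp, and 45.8% of pairs lay within 5 bp. Spearman's rho between the scores of the pair was 0.818 over 759 pairs, and at moved positions it ran from -0.0265 to 0.161 with a median of 0.0572. The calls of a pair come from 1 library and 1 caller and are not independent points. The methods of the study give the same limit to uniquely placed sequences for the read pairs as for the single reads. The read pairs were not analysed here, so that whether pairs that fit both ends entered the calls, and their part in the coincidence of the calls, was not tested.

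Further in, the 4 windows matched by reads gave a like result at ordinary depth. There the reads came to 53.8 per kb on chromosome 11 and 54.8 on chromosome 12. Of the chromosome 11 calls, 238 of 368 (64.7%, 59.6 to 69.6) had a chromosome 12 call within 20 bp, against 40.7% (34.8% to 48.4%) at moved positions. The scores had a rho of 0.717 over 238 pairs, against -0.212 to 0.260 at moved positions. These windows lay at 230, 240, 1320 and 1330 kb, and only that at 240 kb had a call offset within 20 bp of its read offset. Pairs of other regions had 0 to 8 windows with a neighbour at the same read offset. The share of matched calls was not computed for those pairs, so that this result cannot be set apart from theirs.

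**Figure D5:**
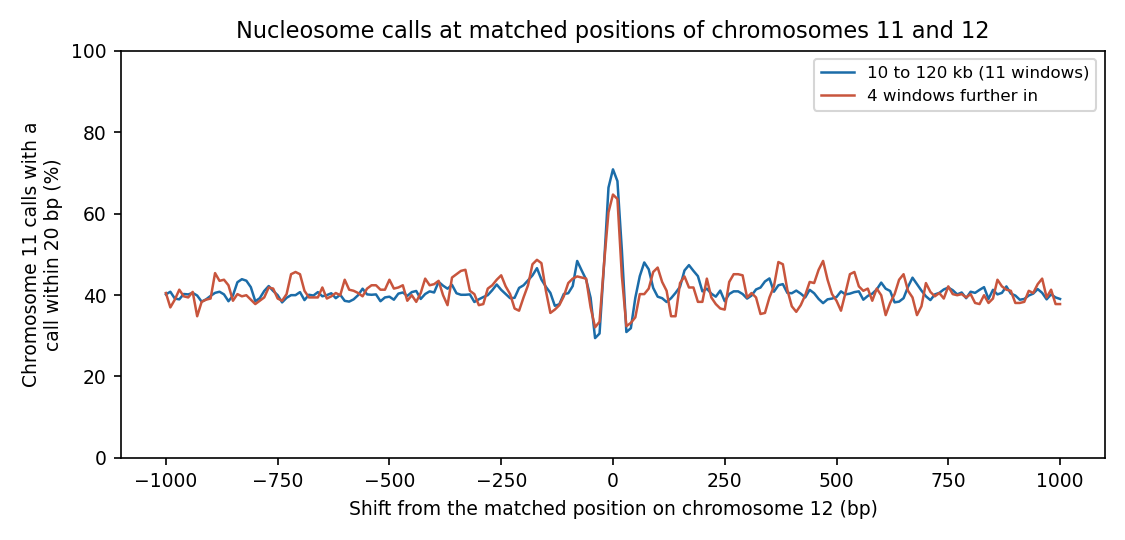
Share of chromosome 11 calls in percent that have a chromosome 12 call within 20 bp, against the shift in bp added to the matched position, for the 11 windows from 10 to 120 kb and for the 4 windows further in. Both lines have their highest value at a shift of 0 (70.9% and 64.7%), minima at -40 bp and 30 bp, and lower maxima further out, at -80 and 70 bp and at -170 and 170 bp for the windows from 10 to 120 kb and at -80 and 100 bp and at -170 and 160 bp for those further in.

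When the matched positions were moved, the share fell and came back more than once. From 10 to 120 kb it fell to 29.4% at a shift of -40 bp and 30.9% at 30 bp, and came back to 48.4% at -80 bp and 48.0% at 70 bp. It fell again to 37.3% at -130 bp and 38.3% at 120 bp, and came back to 46.6% at -170 bp and 47.3% at 170 bp. In the 4 windows further in the minima next to the match were 32.1% at -40 bp and 32.3% at 30 bp, and the maxima were 44.6% at -80 bp and 46.7% at 100 bp, and 48.6% at -170 bp and 44.6% at 160 bp. All of these maxima were well below the share at the match itself.

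Groups of single-end reads were also shared. From 10 to 120 kb, 181 of 348 groups of chromosome 11 (52.0%, 46.6 to 57.4) had a group of chromosome 12 within 20 bp of the carried position, against 15.4% (12.4% to 19.8%) at moved positions. The read offsets were chosen on the presence of these reads, so that this share describes the match and does not support it.

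Read-free runs gave a less clear picture when matched by length alone. Runs of both blocks that differed by at most 20 bp in length were joined in order into a chain, with the offset allowed to move by up to 5 kb from pair to pair. The longest chain of the blocks had 354 pairs, against 154 to 285 with a median of 229 in 13 pairs of other regions. The blocks also had more runs to join than their control windows (1009 and 959 against 655 and 565), and of the steps in the chain only 4.2% kept the offset within 20 bp. The 5 longest pairs of this chain began on chromosome 11 at 7538 (1499 bp), 34335 (1469 bp), 105479 (1383 bp), 89031 (1237 bp) and 338768 (1129 bp), with partners of 1503, 1479, 1401, 1250 and 1119 bp on chromosome 12. Of these 5 pairs, 1, at 34335 with an offset of -1588 bp, lay at the offset that both libraries gave.

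With the offset allowed to move by only 100 bp, a limit chosen after seeing the data, the longest chain had 17 pairs, against 8 to 13 in the other regions. It lay at 4612 to 53350 on chromosome 11 and 2985 to 51766 on chromosome 12, with offsets of -1627 to -1578 bp. In this chain 93.8% of steps kept the offset within 20 bp, and the lengths of the paired runs differed by a median of 6 bp and at most 16 bp. Its longest pairs were the run of 1469 bp at 34335 with its partner of 1479 bp at 32747, and the run of 1085 bp at 4612 with its partner of 1082 bp at 2985. The chain covered the same stretch as the windows from 10 to 50 kb, whose read offsets were -1619 to -1588 bp. Runs and read offsets come from the same single-end reads, so that the chain is not a separate match.

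Carried through the segments between runs of the first chain that lay equally far apart on both chromosomes, 104 of 130 calls (80.0%, 72.1 to 86.5) had a call within 20 bp, against 37.1% (25.4% to 50.8%) at moved positions. Carried through the chain with the 100-bp limit, 280 of 337 calls (83.1%) did, against 43.1% (35.3% to 50.4%). All 3 ways of matching gave shares above every moved position. They are not separate support, since all 3 rest on the same single-end reads and the same calls. The share was computed for other region pairs in none of them.

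Protected length differed little between the blocks and the control windows. The protected length is the distance from forward to reverse 5' ends that occurs most often between 80 and 300 bp. It was 147 bp in the chromosome 11 block and 148 bp in the chromosome 12 block and both control windows, within the 146 to 152 bp of the other tiles. The number of such distances, relative to distances of 400 to 900 bp, was 1.90 and 1.88 in the blocks against 1.82 and 1.77 in the control windows. It was lower than in the chromosome 11 block in 169 of 177 tiles, and lower than in the chromosome 12 block in 157.

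The spacing of nucleosomes, the most frequent distance over 120 bp between 5' ends on 1 strand, was 186 bp in the chromosome 11 block and 176 bp in the chromosome 12 block. The control windows had 187 and 179 bp, and the other tiles 169 to 193 bp with a median of 180 bp and an SD of 4.58 bp. The order of block and window was not stable. With repeated reads counted once the chromosome 11 block had 187 bp against 178 bp in its window, and the chromosome 12 block 171 bp against 175 bp. From reverse reads alone the values were 187 against 184 bp on chromosome 11 and 184 against 178 bp on chromosome 12. With smoothing over 21 bp both windows had 181 bp, against 183 bp in the chromosome 11 block and 177 bp in the chromosome 12 block. The block of chromosome 11 had the greater spacing of both blocks in each of these settings, by amounts that changed with the setting. Between centres of adjacent calls 120 to 250 bp apart, the median distance was 159 bp (3792 distances) and 160 bp (3882 distances) in the blocks. It was 161 and 160 bp in the control windows. In the end stretches of chromosomes 11 and 12 it was 165 bp (196 distances) and 164.5 bp (190 distances). Single 100-kb bins elsewhere in the blocks also reached 165 bp on chromosome 11 and 167.5 bp on chromosome 12.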

How the data were processed

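Leaf nuclei of 2-week-old Nipponbare seedlings were digested with MNase. For the single-end library, the authors used MAQ with up to 1 mismatch to place 36-bp reads on TIGR release 5, kept reads with a single position and deposited these positions with both technical replicates pooled. For the paired-end library, the authors likewise used only pairs with a unique position, kept fragments of up to 200 bp, cut each to its central 40 bp and called nucleosomes with nucleR, whose score they deposited with each call, and versions of MAQ and nucleR are not given in the sources used here. An identical copy of the list of calls was not used, and the read pairs were not analysed here.

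From the deposited positions, reads, calls, read-free runs, spacing and protected length were computed per region with Python 3.11.15, numpy 2.4.6, scipy 1.17.1, pandas 2.3.3 and numba 0.67.0, and the functions were tested on simulated data. Distances between 5' ends were smoothed over 11 bp for the spacing and not for the protected length. Read presence was smoothed over 9 bp before windows were compared, and only the same orientation was searched. Pairs of runs were joined where they lay at most 100 kb apart. A call had a mean of 3.42 (chromosome 11 block) or 3.58 (chromosome 12 block) single-end reads within 20 bp. At this depth the presence or absence of such reads at a single call carries little weight. Reads have no molecular identifiers, and intervals cover counting error only. The blocks, lists and measures were chosen with earlier results of these data known. No gene was named, since gene positions on this release were not used here. Regions were named by rule, as the 2 bins of 100 kb with the fewest and the 2 with the most reads, the 3 longest read-free runs of each block and the 5 longest matched runs, and other windows were named after their values were seen. Alternatives covered the handling of repeated reads, strands, block limits, distances, run lengths, chain limits and scores.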

Additional observations from a re-analysis of the deposited data

How the results depend on the processing

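The lower read density of both blocks, their greater share of calls without reads and their greater share of read-free runs kept their direction under every alternative run, with density ratios of 0.723 to 0.910 on chromosome 11 and 0.749 to 0.951 on chromosome 12, and differences in calls without reads of 1.76 to 10.4 and 4.71 to 14.9 percentage points. In all, 49 planned and 11 added alternatives kept a value within the limit set for it (1 SD over bins, tiles or moved positions, or 1.5 times for a count), 15 planned and 2 added ones did not, and none turned the direction of the differences in density, calls without reads, read-free runs or matched calls. Those added were chosen after seeing the data. Over the 100-kb bins of the blocks, calls without reads had SDs of 13.2 (chromosome 11) and 14.2 (chromosome 12) percentage points. The main differences from the control windows, 7.51 and 11.3 percentage points, were smaller than these SDs. Read-free runs had SDs of 15.1 and 16.0 against differences of 5.49 and 9.15. For these measures a value kept within 1 SD says little about the size of the difference.

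The spacing of calls was 130 bp (chromosome 11) and 132 bp (chromosome 12) with distances of 100 to 300 bp, and 173 and 174 bp among the 50% of calls with the highest score. These follow from the distances and calls admitted, and the control windows moved alike. Smoothing over 11 bp gave a protected length of 150 bp (chromosome 11) and 149 bp (chromosome 12). The spacing of reads on chromosome 12 was 171 bp with repeated reads counted once, 171 bp without smoothing and 184 bp from reverse reads. The order of block and control window in read spacing turned with reverse reads on chromosome 12 (184 against 178 bp), and on chromosome 11 with reverse reads (187 against 184 bp), with repeated reads counted once (187 against 178 bp) and with smoothing over 21 bp (183 against 181 bp). The longest chain of runs had 1663 pairs with a minimum of 100 bp, against 956 to 1260 in the 3 other region pairs run at that setting. It had 19 pairs with a minimum of 500 bp, against 5 to 12, 161 with a step of 1 kb, against 44 to 109, and 17 with a step of 100 bp, against 8 to 13. At matched positions the share of calls exceeded that at moved positions by 42.9 percentage points as reported, by 22.1 within 40 bp, by 55.0 for the 50% of calls with the highest score, by 50.8 for calls that overlap no other (18 calls), and by 30.5 with positions matched by reads. The causes of the shifts in protected length, read spacing and matched calls were not tested.

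No paired analysis was possible because each form of library has a single biological replicate, numbered 1 and 2, and for the same reason no replicate was left out. The pooled positions carry no mark of the technical replicate. In the end stretches, at 7.13 and 7.44 reads per kb, the depth was too low for a spacing or protected length from reads. Which sequence is shared by both ends was not examined, as no genome of this release was used here.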
